A study of Caenorhabditis elegans with 83 samples.

Results

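The genes described here encode the nuclear pore complex of Caenorhabditis elegans and the carriers that move cargo through it. They were the protein-coding genes whose symbol begins with npp, imb, ima, ran or xpo followed by a number, 39 of the 19985 protein-coding genes of the WBcel235 genome. A further matching gene, 1 in number, was not analysed here. Of the 39 genes, 25 are named npp (nuclear pore protein), 3 ima (importin alpha), 3 imb (importin beta family), 3 xpo (exportins) and 5 ran (the Ran cycle). Binding of 3 chromatin factors at these genes was measured by CUT&RUN, in which an antibody steers a nuclease to cut out the DNA beside a bound protein. The factors were SET-26, which has a SET domain and recognises methylated histone H3, HCF-1, a relative of the host cell factor of mammals, and the histone deacetylase HDA-1.

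The worms profiled for a factor were day 1 adults that carried a tag in that protein, rwIs27[set-26::ha], rwIs33[hcf-1::gfp::3xflag] or syb5185[hda-1::gfp::ha]. Each peak list compared merged replicates of a factor, 2 in each factor group, with merged control libraries. For the mutant comparisons the set-26(tm2467) mutant was set against set-26(+) controls and the hcf-1(pk924) mutant against hcf-1(+) controls, with the profiled protein tagged in both, and with histone H3 of the same genotype as the control library. Those comparisons were made in worms fed glp-1 RNAi bacteria, in worms fed the empty vector L4440 and, for HCF-1 in the set-26 mutant, also in the glp-1(e2141) strain on OP50 bacteria. Loss of glp-1 function removes the germline, so glp-1(e2141) and glp-1 RNAi worms are called germline-less, while wild type and L4440 worms hold both soma and germline. A second set of lists, from glp-1(e2141) and wild type worms on OP50, was called against the same antibody used on worms without that tag. In all there were 22 lists, 6 against antibody background and 16 against H3, with 1267 to 13422 unique peaks each. Merged factor libraries held 27.6 to 71.5 M tags. Lists for single replicates were not analysed here, so no value below has a replicate error and no difference was tested.

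The nuclear pore is a ring-shaped channel built of many copies of a set of nucleoporins. A scaffold of outer Y complexes and an inner ring is anchored in the membrane, and channel nucleoporins with flexible repeats let carriers through. Importins and exportins carry cargo across, and the small GTPase Ran, bound to GTP in the nucleus and to GDP outside it, sets their direction. Nearly every cell uses machinery of this kind.

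A gene was called bound when a unique peak overlapped an interval that began 2000 bp before its start and ended 500 bp after it, and the peak with the highest −log10 q in that interval stood for the gene. The strength of a peak is given as fold enrichment, the pileup of fragments at the summit over the local background, as MACS2 reported it. SET-26 was at every one of the transport genes. It was called at 39 of 39 in glp-1(e2141) worms, against 38.7% of all protein-coding genes, and at 39 of 39 in wild type worms, against 36.7%. Their peaks were also strong. The median fold enrichment was 8.22 over the 39 genes in glp-1(e2141) worms (range 1.71 to 27.3), against 4.10 over all SET-26-bound genes. The median peak stood at the 93.4 percentile of its list by −log10 q, against the 82.0 percentile for all bound genes, and was 1284 bp wide, against 756 bp.

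The strongest SET-26 peaks in glp-1(e2141) worms, by −log10 q, were those of npp-3, npp-12, npp-21 and imb-1. The npp-3 gene encodes the large inner ring nucleoporin Nup205, and its SET-26 peak reached 25.3-fold in glp-1(e2141) worms and 40.2-fold in wild type worms, the tallest of any transport gene in wild type. The npp-12 gene encodes the membrane nucleoporin gp210, and SET-26 reached 27.3-fold there in glp-1(e2141) worms and 28.4-fold in wild type. At npp-21, which encodes the TPR protein of the nuclear basket, SET-26 reached 19.8-fold in glp-1(e2141) worms and 19.1-fold in wild type. At imb-1, which encodes importin beta itself, it reached 17.1-fold in glp-1(e2141) worms and 22.8-fold in wild type. At the other end stood npp-26, the Gle1 mRNA export factor, at 1.71-fold in glp-1(e2141) worms and 2.88-fold in wild type, and npp-22, the membrane nucleoporin NDC1, at 2.38-fold in glp-1(e2141) worms and 2.41-fold in wild type.

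The DNA under some of these summits is shown to let the sites be read directly. Each stretch is the 200 bases centred on the SET-26 summit in glp-1(e2141) worms, read 5′ to 3′ on the strand of the gene, from the RefSeq copy of WBcel235. Capitals mark matches, on either strand, to 1 of 6 short words searched for. These were TGATAA of GATA factors, GTAAACA of forkhead factors, CACGTG as an E-box, and the words CTGCGTC as well as GCGCGC as well as TTTCGC, which are given no factor here. The first is the npp-3 site, with the strongest SET-26 peak by −log10 q, at chrII:11874797-11874996 on the minus strand, 208 to 9 bp upstream of the gene start and 50% GC. The next 3 are npp-10 (the Nup98 and Nup96 precursor) at chrIII:6019804-6020003 on the minus strand, ran-5 at chrII:6047819-6048018 on the plus strand, and npp-20 (the Sec13 subunit of the Y complex) at chrIV:1496195-1496394 on the minus strand. The last is npp-21 at chrII:7598883-7599082 on the plus strand, a strong site that holds none of the 6 words.
npp-3: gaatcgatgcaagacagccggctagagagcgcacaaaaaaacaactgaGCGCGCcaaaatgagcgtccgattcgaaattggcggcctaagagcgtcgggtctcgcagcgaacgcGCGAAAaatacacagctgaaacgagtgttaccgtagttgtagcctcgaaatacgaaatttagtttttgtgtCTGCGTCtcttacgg
npp-10: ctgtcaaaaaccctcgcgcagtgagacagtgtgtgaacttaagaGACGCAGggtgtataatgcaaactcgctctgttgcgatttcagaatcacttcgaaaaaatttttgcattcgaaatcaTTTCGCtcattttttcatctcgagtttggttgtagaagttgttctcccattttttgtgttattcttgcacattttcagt
ran-5: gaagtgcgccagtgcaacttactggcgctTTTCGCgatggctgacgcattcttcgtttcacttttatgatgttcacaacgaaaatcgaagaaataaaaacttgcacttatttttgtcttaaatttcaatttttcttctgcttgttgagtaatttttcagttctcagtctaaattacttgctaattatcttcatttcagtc
npp-20: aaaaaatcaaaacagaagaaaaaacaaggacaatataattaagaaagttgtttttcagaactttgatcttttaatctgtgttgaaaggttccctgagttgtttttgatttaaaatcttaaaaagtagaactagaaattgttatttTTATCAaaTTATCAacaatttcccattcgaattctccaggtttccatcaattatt
npp-21: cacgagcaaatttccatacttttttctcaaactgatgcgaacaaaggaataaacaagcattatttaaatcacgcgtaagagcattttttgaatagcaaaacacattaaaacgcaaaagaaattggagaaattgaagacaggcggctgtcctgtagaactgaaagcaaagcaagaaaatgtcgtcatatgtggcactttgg
The npp-3 stretch holds 3 different words, with CTGCGTC near its end, GCGCGC near its beginning and TTTCGC between them, and the npp-10 stretch holds CTGCGTC and also TTTCGC. The ran-5 stretch holds TTTCGC, and the npp-20 stretch, at 25.5% GC, holds TGATAA at 2 places and no other word. Stretches read in the same way at ran-1, npp-27 and ima-3 held none of the 6 words and are not printed. The printed stretches therefore favour sites with a word and do not show how often the words occur.

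Over all transport genes, TTTCGC was the most common of these words. It was present in the promoter, taken as 250 bases before to 50 bases after the start, of 16 of 39 genes (41.0%), against 18.2% of all 19985 promoters. In 300-base windows on SET-26 summits in glp-1(e2141) worms it was present at 15 of 39 transport genes (38.5%), against 23.5% of the 5130 peaks that stood for a bound gene. GCGCGC was in 9 of the 39 summit windows (23.1%), against 8.38% of those peaks, and CTGCGTC in 4 (10.3%), against 17.5%. TGATAA, the core bound by intestinal GATA factors, was in 8 of 39 promoters (20.5%), against 30.2% of all promoters. GTAAACA, a forkhead core, was in 1 promoter of 39, against 4.77%, and CACGTG, an E-box, in 2 of 39, against 5.81%. In summit windows in glp-1(e2141) worms CACGTG was at 3 of 39 transport genes for SET-26, against 6.59% of peaks that stood for a bound gene. For HCF-1 it was at 5 of 38, against 6.67%, and for HDA-1 at 6 of 31, against 7.26%. TTTCGC can share letters with GCGCGC where they follow each other. A match is a string of letters and not a shown binding site. GC content did not set the sites apart, with a median of 37.3% over the SET-26 windows of transport genes and 37.3% over those of all bound genes.

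SET-26 summits lay mostly in the intergenic space upstream of the gene, and those of HDA-1 were farther from it. The SET-26 summit in glp-1(e2141) worms was upstream of the start at 34 of 39 genes, with a median position of -255 bp, and within 500 bp of the start at 29 of 39 (all bound genes: median -355 bp, 52.5% within 500 bp). It was intergenic at 31 genes, in the gene's own 5′ UTR at npp-23, npp-24 and ran-2, in a coding exon of npp-16 and in an intron of npp-27. At npp-4 and npp-22 it lay in the 3′ UTR of a neighbouring gene and at npp-6 in an intron of one. Another gene often starts close by. A gene on the opposite strand started within 1000 bp of 20 of 39 transport genes (51.3%), against 17.7% of all protein-coding genes, and the start nearest to the SET-26 summit was that of the transport gene itself at 22 of 39 in glp-1(e2141) worms and 17 of 39 in wild type. HDA-1 summits had a median position of -418 bp in glp-1(e2141) worms, against -383 bp for all HDA-1-bound genes, with 19 of 31 within 500 bp of the start. The transport gene was the nearest start to the HDA-1 summit at 13 of 31 genes in glp-1(e2141) worms and 8 of 21 in wild type. HDA-1 at npp-20 rested on a peak at -1543 bp that was nearest to the start of hxk-3, and HDA-1 at npp-1 on a peak at -1747 bp nearest to that of K07F5.12. Pairs of this kind include npp-3 with top-2 at 360 bp and ran-1 with dkc-1 at 701 bp. Which gene of such a pair a peak belongs to was not tested. A gene on the same strand ended within 500 bp upstream at 5 of 39 genes, against 18.1% of all genes, as npp-15 does 480 bp before ran-2, and in wild type worms those neighbours shared a single SET-26 peak.

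**Figure D1:**
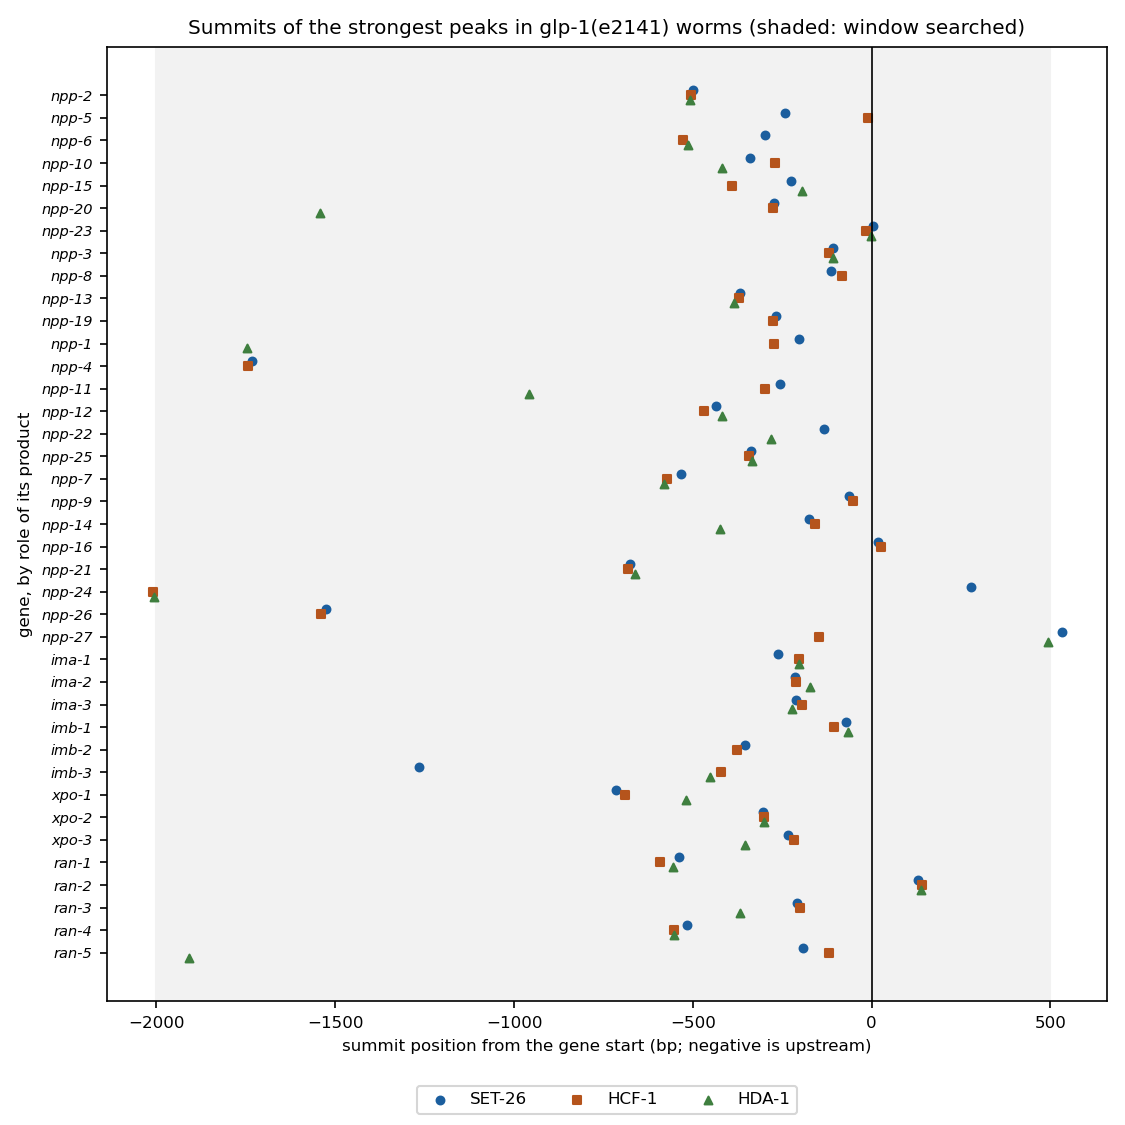
Position of the summit of the strongest peak of SET-26 (circles), HCF-1 (squares) and HDA-1 (triangles) relative to the start of each of the 39 genes in glp-1(e2141) worms, in bp, negative upstream, with the searched window shaded. SET-26 summits lie within 500 bp of the start at 29 of 39 genes and HDA-1 summits at 19 of 31, and single points such as HDA-1 at npp-1, npp-20 and ran-5 lie far upstream.

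HCF-1 was found at nearly the same genes, with lower fold enrichment. HCF-1 and SET-26 carried different tags and were profiled with different antibodies, so their folds do not measure relative occupancy. It was called at 38 of 39 transport genes in glp-1(e2141) worms against antibody background, against 37.2% of all genes, and at 39 of 39 in wild type worms, against 31.3%. The exception was npp-22, which had a 2.67-fold HCF-1 peak in wild type worms and, when the same glp-1(e2141) library was set against H3, a 2.01-fold peak. With that H3 control HCF-1 was at 39 of 39, against 43.8% of all genes. The median fold enrichment in glp-1(e2141) worms was 3.61 over the transport genes (range 1.56 to 16), against 2.92 over all bound genes. The strongest HCF-1 peaks there by −log10 q were at npp-12 with 16-fold, npp-20 with 11.2-fold, imb-3 with 7.21-fold and npp-3 with 7.18-fold, while xpo-2, at 9.35-fold, was above imb-3 and npp-3 by fold enrichment. The imb-3 gene encodes a beta-type importin related to human importin 5. The order of genes was not that of SET-26: npp-20, the second of HCF-1, had a SET-26 peak of only 5.91-fold. HCF-1 and SET-26 summits were a median of 22 bp apart over 38 genes, within 200 bp at 33 of them, against a median of 30 bp and 84.3% over all genes bound by both.

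HDA-1 divided the set. It was called at 31 of 39 transport genes in glp-1(e2141) worms, against 40.5% of all genes, and in wild type worms at 21 of 39, against 29.9%. Its peaks at these genes were no taller than elsewhere, with a median of 2.60-fold in glp-1(e2141) worms (range 1.36 to 7.93), against 2.70-fold over all HDA-1-bound genes. The strongest by −log10 q were npp-3 at 6.84-fold, npp-12 at 7.93-fold, imb-3 at 6.83-fold and npp-20 at 5.94-fold. At 12 genes an HDA-1 peak was present in all 8 HDA-1 lists, mutants included, against 12.4% of all genes. These were npp-3, npp-7, npp-12, npp-20, npp-21, npp-27, imb-1, imb-3, xpo-1, ran-1, ran-4 and ran-5. At the other extreme, npp-4, npp-5, npp-8 and npp-9 had no HDA-1 peak in any of the 8 lists, as was the case for 53.9% of all genes. Those 4 genes encode the channel nucleoporin Nup58, the Y complex subunit Nup107, the inner ring protein Nup155 and Nup358, a Ran-binding protein of the cytoplasmic face. Each was bound by SET-26 in 6 of 6 SET-26 lists, with 10.7-fold, 4.55-fold, 3.81-fold and 6.36-fold enrichment in glp-1(e2141) worms in that order.

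By role, every group carried SET-26 at all its members in both backgrounds. Of all genes, 40.5% had HDA-1 in glp-1(e2141) worms and 29.9% in wild type, and 31 and 21 of the 39 transport genes did. The groups are small, and differences between them in HDA-1 were not tested. The 5 Ran cycle genes, which encode among others the GTPase (ran-1), its activating protein (ran-2), its exchange factor (ran-3) and its import factor NTF2 (ran-4), all had an HDA-1 peak in glp-1(e2141) worms, and 3 of 5 had one in wild type. Of the 7 Y complex genes 6 had HDA-1 in glp-1(e2141) worms and 3 in wild type. Of the 7 genes for proteins of the cytoplasmic and nuclear faces 4 had it in both. Of the 4 inner ring genes 2 had it in glp-1(e2141) worms (npp-3 and npp-13) and 1 in wild type (npp-3). The 3 exportin genes, for the leucine-rich signal exporter xpo-1, the importin alpha exporter xpo-2 and the tRNA exporter xpo-3, had HDA-1 at 3 of 3 in glp-1(e2141) worms and 2 of 3 in wild type. The importin alpha genes had it at 3 of 3 in glp-1(e2141) worms and 1 of 3 in wild type. For the membrane genes the counts were 3 of 3 and 2 of 3 in the same order. Importin beta and central channel genes each had it at 2 of 3 in both backgrounds, and npp-27 had it in both. All 3 factors had a peak in the window at 30 of 39 transport genes in glp-1(e2141) worms, against 28.5% of all genes, and at 21 of 39 in wild type, against 19%. The remainder held SET-26 and HCF-1 without HDA-1, 8 genes in glp-1(e2141) worms (3.99% of all genes) and 18 in wild type (10.3% of all genes), apart from npp-22 in glp-1(e2141) worms, where HCF-1 was the one missing. No transport gene had SET-26 alone, against 4.37% of all genes in glp-1(e2141) worms. Peaks in the same window need not coincide. SET-26 and HDA-1 summits in glp-1(e2141) worms were within 200 bp at 23 of 31 transport genes, against 84.2% of all genes bound by both. For HCF-1 and HDA-1 it was 24 of 30, against 86.0%. In wild type the counts were 19 of 21, against 75.3%, and 17 of 21, against 78.6%, in the same order of pairs.

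**Figure D2:**
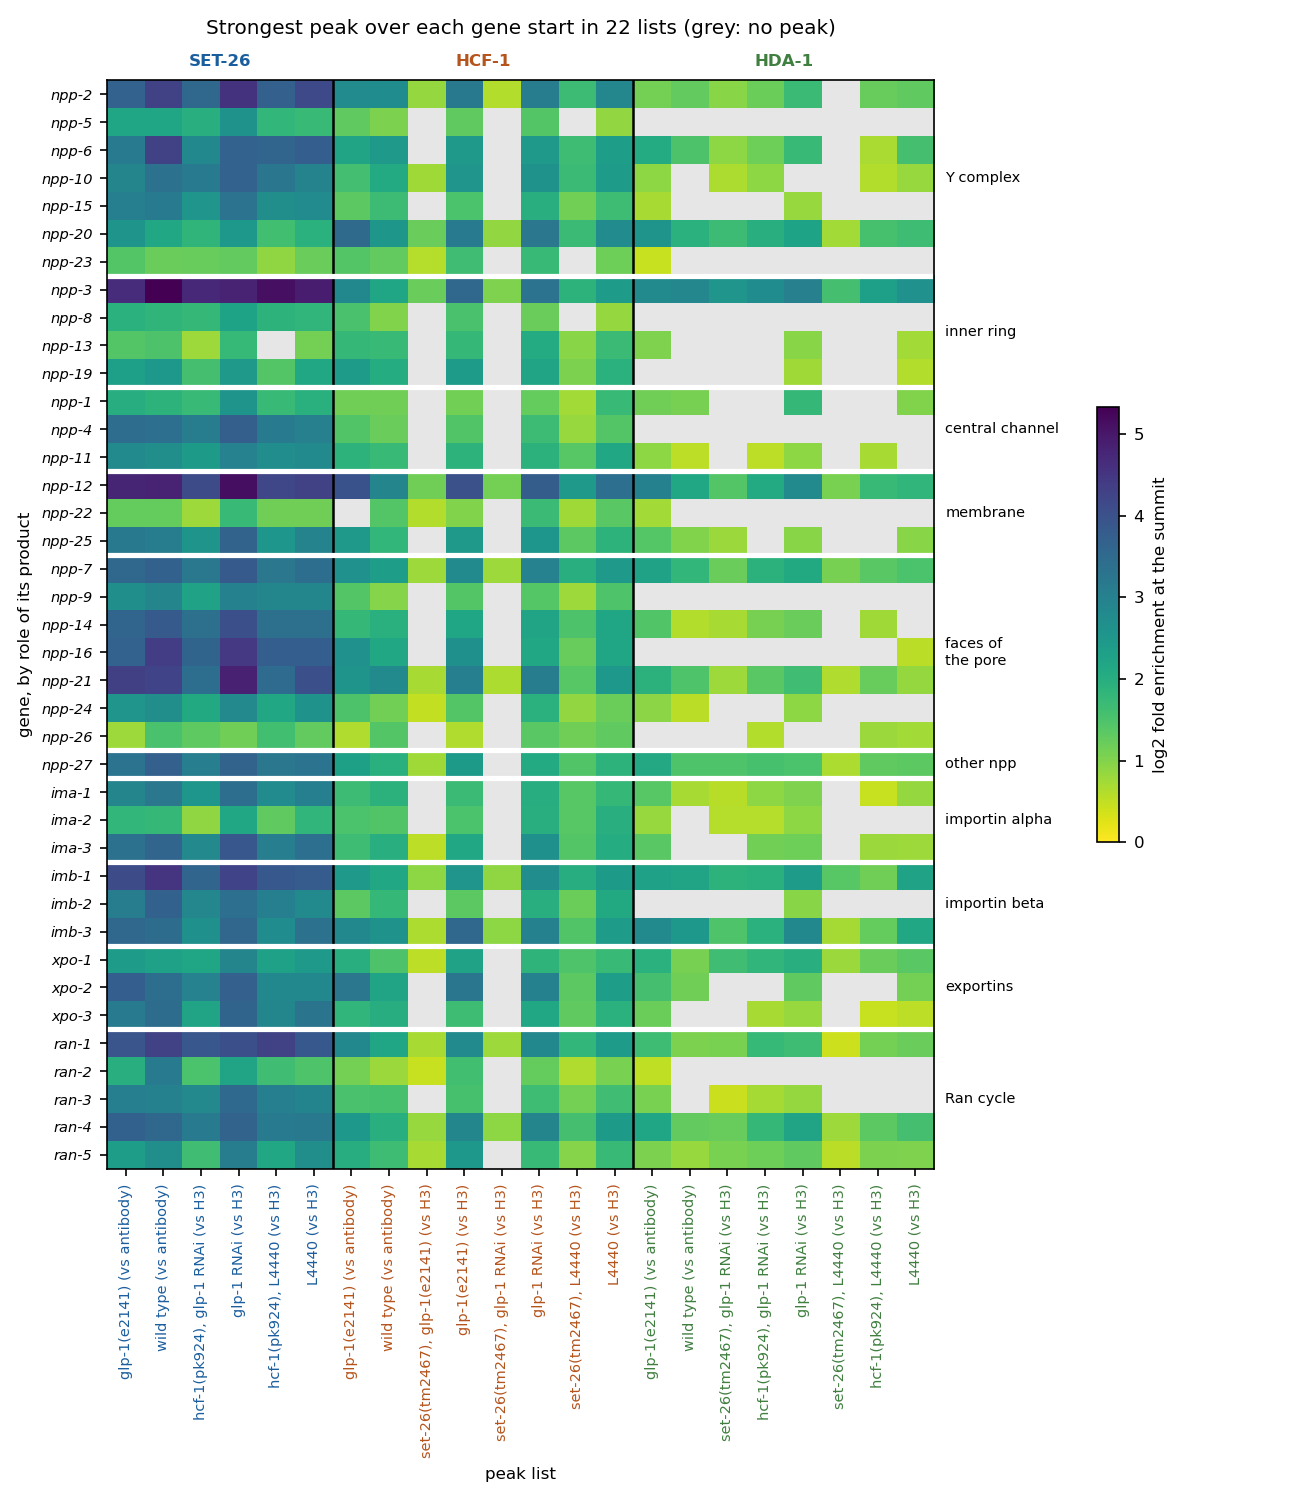
Heat map of log2 fold enrichment at the summit of the strongest peak over each of the 39 gene starts (rows, grouped by role) in each of the 22 peak lists (columns, grouped by factor, each mutant left of its control), with grey for no peak. The SET-26 block is filled except for npp-13 in 1 list, the HCF-1 block is grey at 29 genes in the set-26 mutant on glp-1 RNAi, and the HDA-1 block is grey throughout at npp-4, npp-5, npp-8 and npp-9.

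Germline-less and whole worms were compared at the same genes. Fewer bound cells of a type and less binding per cell cannot be told apart in such bulk samples. As a check of the labels, promoters of 18 germline genes were looked up. SET-26 was at 6 of 18 in glp-1(e2141) worms and 16 of 18 in wild type, and HCF-1 at 3 of 18 in glp-1(e2141) worms and 15 of 18 in wild type. The separation was smaller with RNAi, where SET-26 was at 10 of 18 in glp-1 RNAi worms and 14 of 18 in L4440 worms, and HCF-1 at 13 of 18 in glp-1 RNAi worms and 14 of 18 in L4440 worms. HDA-1 was at 4 or 5 of 18 in glp-1(e2141), wild type, glp-1 RNAi and L4440 control worms alike. The transport genes did not follow the germline genes. SET-26 was present at all 39 in the 4 control backgrounds. The median log2 ratio of its fold enrichment, glp-1(e2141) over wild type, was -0.14 over the transport genes and -0.07 over all genes bound in both. On RNAi bacteria the ratio went the other way. For glp-1 RNAi over L4440 it was 0.45, with 36 of 39 transport genes higher in glp-1 RNAi worms. Over all genes bound in both of these lists it was 0.57, with 90.6% higher.

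HDA-1 was the factor whose calls at transport genes differed most between backgrounds. It had a peak in glp-1(e2141) worms and none in wild type at 10 transport genes (ima-2, ima-3, npp-10, npp-13, npp-15, npp-22, npp-23, ran-2, ran-3 and xpo-3), and the reverse at 0. Of all genes with HDA-1 in either background, 28% had it in glp-1(e2141) worms alone and 2.5% in wild type alone. The HDA-1 library of glp-1(e2141) worms was deeper, with 66.5 M tags, against 43.2 M in wild type, and its part in this difference was not tested. The peaks concerned were low. The strongest in glp-1(e2141) worms were ima-3 at 2.59-fold, xpo-3 at 2.28-fold, ran-3 at 2.09-fold and npp-13 at 2.04-fold. On RNAi bacteria HDA-1 was at 29 of 39 transport genes in glp-1 RNAi worms, against 40.1% of all genes, and at 25 of 39 in L4440 worms, against 29.7%. There 7 genes had HDA-1 in glp-1 RNAi worms alone (ima-2, imb-2, npp-11, npp-14, npp-15, npp-24 and ran-3) and 3 in L4440 worms alone (npp-10, npp-16 and npp-26). Of all genes with HDA-1 in either of these lists, 27.9% had it in glp-1 RNAi worms alone and 2.49% in L4440 worms alone. Here the whole worm library was the deeper, with 71.5 M tags in L4440 worms, against 53.3 M in glp-1 RNAi worms. Only ima-2, npp-15 and ran-3 had HDA-1 in the germline-less list and not in the whole worm list in both comparisons.

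The mutant lists were read to see which factor stays on these genes when another is missing. On glp-1 RNAi HCF-1 in the set-26 mutant showed the widest difference, while on L4440 HDA-1 in that mutant did, as given below. In glp-1 RNAi worms 10 of 39 transport genes kept an HCF-1 peak in the mutant, against 15.4% of all genes bound in the control. In glp-1(e2141) worms 19 of 39 did, against 42.3%, and in L4440 worms 36 of 39 did, against 68.3%. Taken over all protein-coding genes, HCF-1 was bound at 6.16% in the set-26 mutant, against 38.2% in its control, on glp-1 RNAi, where the control list had it at 39 of 39 transport genes. For glp-1(e2141) it was bound at 20.6% of all genes in the mutant, against the 43.8% given above for the control. In L4440 worms it was bound at 20.3% in the mutant and 29.6% in the control, which again had 39 of 39 transport genes.

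The 10 genes that kept HCF-1 in the set-26 mutant on glp-1 RNAi also kept it in the other 2 settings. They were npp-2 (the Y complex subunit Nup85), npp-3, npp-7 (Nup153 of the nuclear basket), npp-12, npp-20, npp-21, imb-1, imb-3, ran-1 and ran-4. Of the 5159 genes with HCF-1 in the 3 control lists, 17.4% kept it in all 3 mutant lists. What was kept was low. At npp-12 HCF-1 stood at 2.16-fold in the set-26 mutant on glp-1 RNAi, against 13.5-fold in the control. In glp-1(e2141) worms the same gene had 2.24-fold in the mutant and 16.1-fold in the control, and in L4440 worms 5.48-fold in the mutant and 10.5-fold in the control. At npp-3 the fold was 2.04 in the mutant and 9.86 in the control on glp-1 RNAi, 2.31 in the mutant and 11.6 in the control in glp-1(e2141) worms, and 3.68 in the mutant and 5.26 in the control on L4440. At ran-1, the Ran GTPase, it was 1.73 in the mutant and 7.20 in the control on glp-1 RNAi, 1.61 in the mutant and 6.82 in the control in glp-1(e2141) worms, and 3.46 in the mutant and 5.23 in the control on L4440. The fold enrichment was therefore lower in the mutant in all 3 settings at each of these genes, and the narrowest gap was on L4440.

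Across the kept genes, the median log2 ratio of fold enrichment, set-26 mutant over control, was -2.23 on glp-1 RNAi (10 genes, all lower), -1.79 in glp-1(e2141) worms (19 genes, all lower) and -0.65 on L4440 (36 genes, all lower). Over all kept genes it was -1.75, -1.39 and -0.70 in the same order of settings. The glp-1(e2141) pair added 9 genes to the 10, among them ima-3, npp-10, npp-27, ran-5, xpo-1 and ran-2, each at 1.37-fold to 1.70-fold in the mutant. At npp-24 (Nup88), also among the 9, the strongest control peak lay over the 3′ UTR of fzy-1, and the mutant peak of 1.40-fold was a different one nearer the gene start. On L4440 the 3 genes without a mutant peak were npp-5, npp-8 and npp-23, whose control peaks were 1.83-fold, 1.79-fold and 2.27-fold. The mutant HCF-1 libraries held more tags than their controls in each setting, 35.2 M against 27.6 M on glp-1 RNAi, 69.0 M against 55.9 M in glp-1(e2141) worms and 37.9 M against 31.7 M on L4440.

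**Figure D3:**
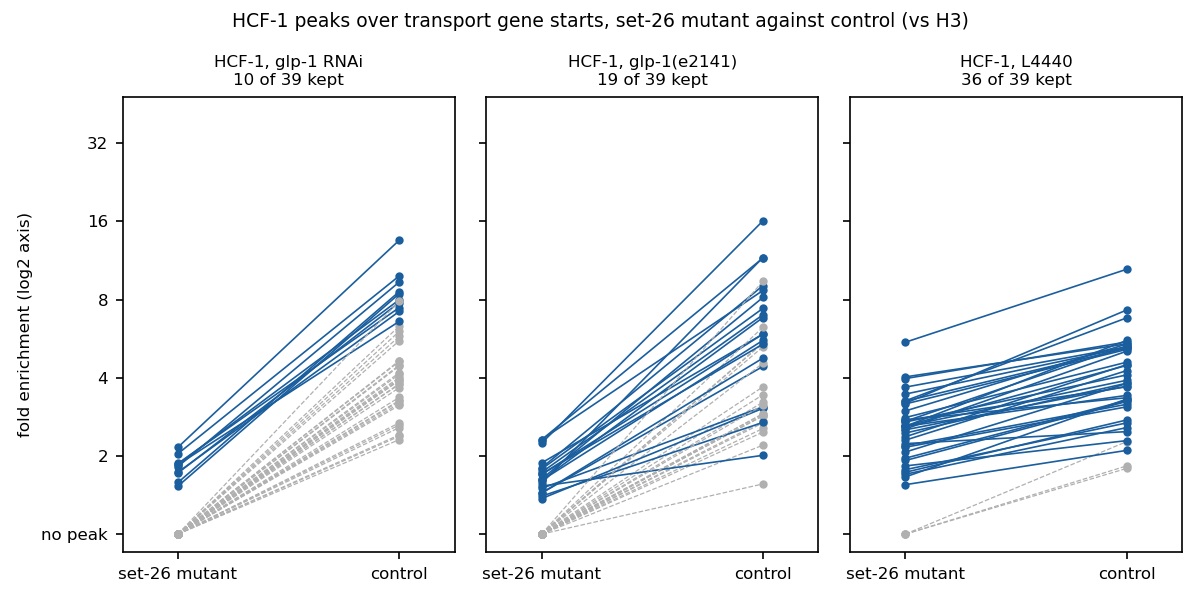
Fold enrichment of the strongest HCF-1 peak over each transport gene start in the set-26 mutant (left of each panel) and its control (right) on glp-1 RNAi, in glp-1(e2141) worms and on L4440, on a log2 axis, with blue lines for genes with a peak in both and grey dashed lines for genes without a mutant peak, drawn at the bottom. Every blue line is lower in the mutant, and the drop is shallower on L4440, where 36 of 39 genes keep a peak.

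Keeping a peak went with its strength in the control. On glp-1 RNAi the 10 genes that kept HCF-1 had control peaks of 6.59-fold to 13.5-fold (median 8.20), and the 29 that did not had 2.31-fold to 7.89-fold (median 3.90). The ranges overlapped, since xpo-2, at 7.89-fold in the control, had no peak in the mutant. The same ordering held for all genes. Among control peaks above the 80 percentile of their list by −log10 q, 10 of 25 transport genes kept HCF-1 on glp-1 RNAi, against 32.7% of all genes with such a control peak. For glp-1(e2141) the counts were 15 of 21 transport genes above the 80 percentile, against 67.3% of all genes, and 3 of 14 between the 60 and 80 percentiles, against 34.0%. On L4440 they were 23 of 23 above the 80 percentile, against 97.3%, and 11 of 11 between the 60 and 80 percentiles, against 78.1%. In germline-less worms the transport genes were near the share of all genes of like control strength.

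**Figure D4:**
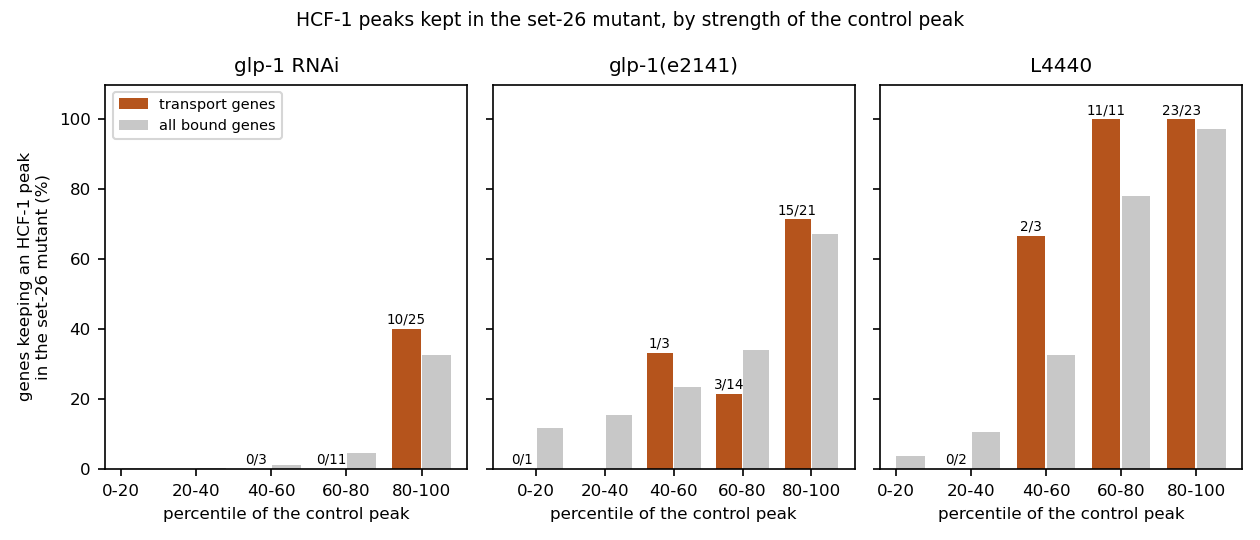
Percentage of genes keeping an HCF-1 peak in the set-26 mutant, for transport genes (orange, with counts) and for all genes bound in the control (grey), by the percentile of the control peak in its list, in steps of 20, for the 3 settings. Both kinds of bar rise with control strength, and above the 80 percentile they stand at 10 of 25 and 32.7% on glp-1 RNAi.

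HCF-1 in the set-26 mutant was also set beside HDA-1, as a description with no test of the overlap. Of the 12 genes with HDA-1 in all 8 lists, 9 kept HCF-1 in the 3 set-26 mutant lists, and of the other 27 genes 1 did (npp-2). Over all genes with HCF-1 in the 3 control lists, the shares were 33.8% of 1874 genes with HDA-1 in all 8 lists and 7.98% of the other 3285. The strength of the control HCF-1 peak differed as well. On glp-1 RNAi it was 8.42-fold at npp-2, and 4.18-fold, 3.36-fold and 3.66-fold at npp-27, ran-5 and xpo-1. Those last 3 genes had HDA-1 in all 8 lists and lost HCF-1 there. At xpo-2, which lacked HDA-1 in the mutant lists, HCF-1 was 7.89-fold in the control and was lost. The part of control strength in this pattern was not tested. The 9 genes that kept HCF-1 and had HDA-1 in all 8 lists were bound in all 22 lists, against 3.01% of all genes. This largely restates how they were chosen, since 38 of 39 transport genes had SET-26 and HCF-1 in every control list. Another 4 genes were bound in 21 lists (npp-2, npp-27, ran-5 and xpo-1), and the fewest lists for any transport gene was 11, at npp-5 and npp-8.

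SET-26 stayed on the transport genes without HCF-1. In the hcf-1 mutant 39 of 39 kept a SET-26 peak on glp-1 RNAi, against 87.7% of all genes bound in the control, and 38 of 39 kept it on L4440, against 94.1%. Over all genes SET-26 was bound at 35.7% in the hcf-1 mutant and 38.7% in the control on glp-1 RNAi, and at 35.3% in the mutant and 34.6% in the control on L4440. The 1 loss was npp-13, the inner ring linker Nup93, whose control peak on L4440 was 2.16-fold. Its SET-26 peak on glp-1 RNAi was 1.72-fold in the mutant and 3.39-fold in the control. The level was lower on glp-1 RNAi, with a median log2 ratio, hcf-1 mutant over control, of -0.73 over 39 genes, 38 of them lower, against -0.71 over all genes kept. On L4440 it was -0.08 over 38 genes, 23 of them lower, against -0.09. The deepest differences on glp-1 RNAi were at ran-5 (3.10-fold in the mutant, 8.47-fold in the control), npp-21 (10.6-fold in the mutant, 28.6-fold in the control) and xpo-3 (4.65-fold in the mutant, 12.2-fold in the control). At npp-3 the fold was nearly level, 26.6 in the mutant and 28.1 in the control, and at ran-1 it was 14.7 in the mutant and 16.4 in the control. The 1 gene that was higher in the mutant was npp-26, at 2.5-fold in the mutant and 2.23-fold in the control. The mutant library on glp-1 RNAi held 59.3 M tags and the control 38.4 M, and the part of depth in these folds was not tested.

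HDA-1 peaks were lost at part of the transport genes in either mutant. In the set-26 mutant 19 of 29 kept HDA-1 on glp-1 RNAi, against 71.9% of all genes bound in the control, and 12 of 25 kept it on L4440, against 44.1%. In the hcf-1 mutant 21 of 29 kept it on glp-1 RNAi, against 79.2%, and 19 of 25 on L4440, against 83.2%. The 2 mutants were compared with the same control lists. Over all genes HDA-1 was bound at 30.1% in the set-26 mutant on glp-1 RNAi and 13.5% on L4440, and at 33.7% in the hcf-1 mutant on glp-1 RNAi and 26.9% on L4440. The share kept by the transport genes was close to that of all genes in each of the 4 pairs.

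The 12 genes with HDA-1 in all 8 lists made up all 12 that kept it in the set-26 mutant on L4440. At npp-3 HDA-1 was 5.85-fold in the set-26 mutant and 6.70-fold in the hcf-1 mutant on glp-1 RNAi, against 7.99-fold in the control. On L4440 it was 2.99-fold in the set-26 mutant and 5.0-fold in the hcf-1 mutant, against 6.22-fold in the control. At imb-3 the drop was larger in proportion on glp-1 RNAi, with 2.78-fold in the set-26 mutant and 3.80-fold in the hcf-1 mutant, against 7.16-fold in the control. On L4440 imb-3 had 1.64-fold in the set-26 mutant and 2.39-fold in the hcf-1 mutant, against 4.41-fold. At xpo-1, the exporter of proteins with a leucine-rich signal, the values on glp-1 RNAi were 3.11-fold in the set-26 mutant and 3.55-fold in the hcf-1 mutant, against 3.91-fold in the control. HDA-1 at these 3 genes, chosen after their values were seen, was lower in both mutants than in the control. Not all of the 12 followed them. At npp-21 on L4440 it was higher in the hcf-1 mutant, at 2.37-fold, against 1.80-fold in the control. At ran-5 on L4440 it was 2.08-fold in the hcf-1 mutant, against 2.04-fold. On glp-1 RNAi the hcf-1 mutant was higher at ran-1 (3.39-fold against 3.13-fold) and npp-27 (2.94-fold against 2.84-fold). At imb-1 on L4440 both mutants were lower, with 2.24-fold in the hcf-1 mutant and 2.62-fold in the set-26 mutant, against 4.76-fold in the control. Over the transport genes that kept HDA-1, the median log2 ratio, set-26 mutant over control, was -0.51 on glp-1 RNAi (19 of 19 lower) and -0.78 on L4440 (12 of 12 lower), against -0.47 and -0.66 over all genes kept in these settings. The hcf-1 mutant over control gave -0.25 on glp-1 RNAi (19 of 21 lower) and -0.11 on L4440 (15 of 19 lower), against -0.29 and -0.14 over all genes kept.

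Genes that lost HDA-1 had low control peaks, with exceptions. The strongest control peaks without a counterpart in the set-26 mutant on glp-1 RNAi were at npp-1 (3.45-fold), xpo-2 (2.48-fold), ima-3 (2.25-fold), imb-2 (1.93-fold), npp-13 (1.93-fold) and npp-24 (1.87-fold). The npp-1 gene encodes the channel nucleoporin Nup54 and imb-2 encodes transportin. On L4440 they were npp-6 (2.98-fold, the Y complex subunit Nup160), npp-2 (2.45-fold), xpo-2 (2.17-fold), npp-1 (2.02-fold), npp-25 (1.92-fold, the membrane protein TMEM33) and ima-1 (1.79-fold). In the hcf-1 mutant on glp-1 RNAi they were npp-1, xpo-2, npp-25 (1.94-fold), imb-2, npp-13 and npp-24, and on L4440 xpo-2, npp-1, npp-25, npp-13 (1.66-fold), npp-19 (1.53-fold) and npp-16 (1.46-fold). The npp-1 and xpo-2 genes thus had no HDA-1 peak in any of the 4 mutant lists and one in each of the 4 control lists. The reverse, a peak in a mutant and none in its control, was seen at npp-10 in the set-26 mutant on glp-1 RNAi (1.58-fold), at npp-10 (1.86-fold) and npp-26 (1.52-fold) in the hcf-1 mutant on glp-1 RNAi, and at npp-11 (1.62-fold) and npp-14 (1.70-fold) in the hcf-1 mutant on L4440. All were under 2-fold.

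**Figure D5:**
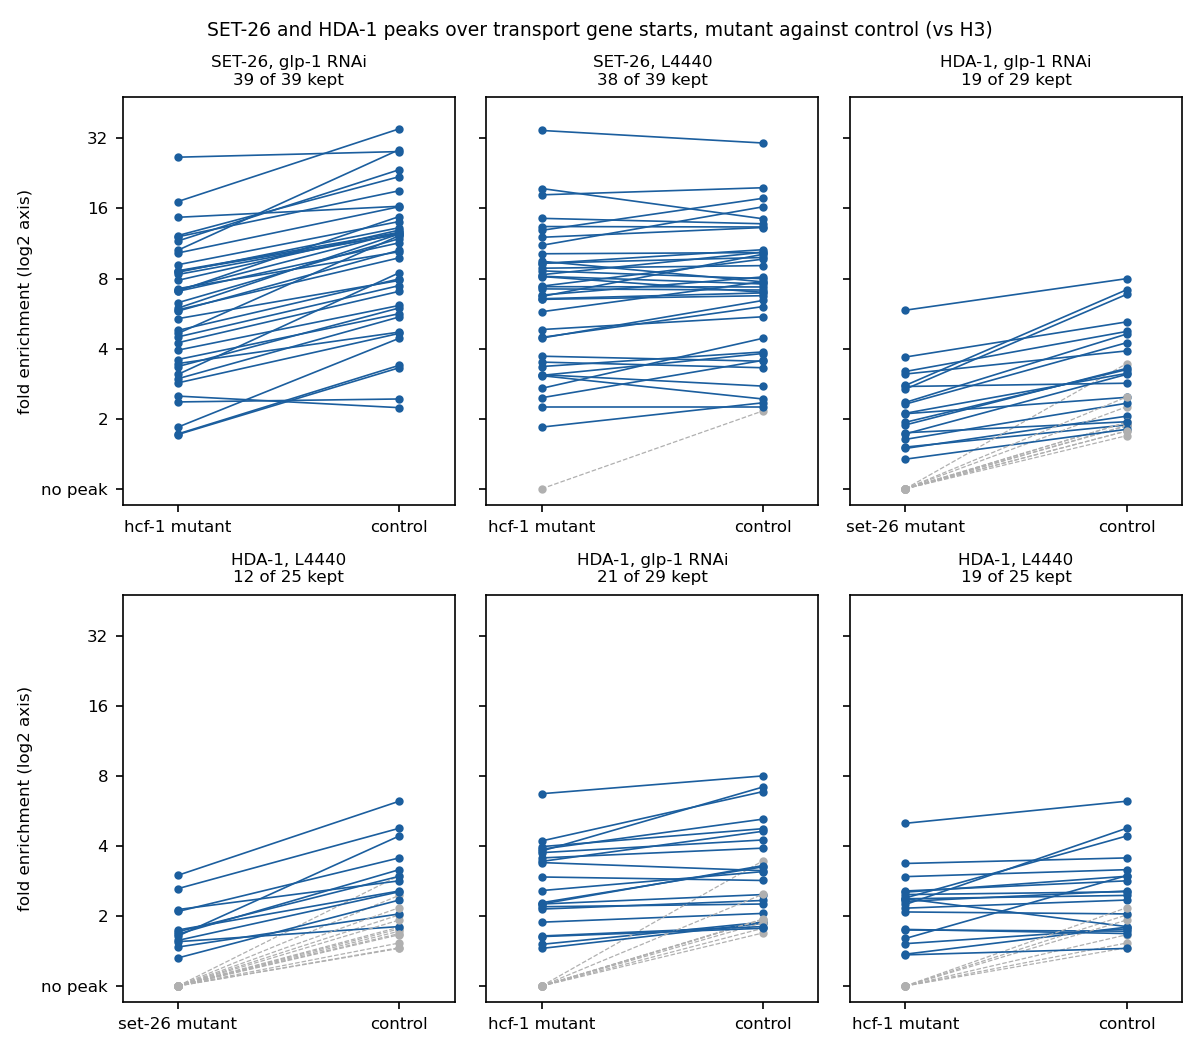
Fold enrichment of the strongest peak over each transport gene start in the mutant (left of each panel) and its control (right), on a log2 axis, for SET-26 in the hcf-1 mutant and for HDA-1 in either mutant, on glp-1 RNAi and L4440; lines as in the plot for HCF-1. SET-26 is kept at 39 and 38 of 39 genes, and HDA-1 at 12 of 25 in the set-26 mutant on L4440.

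The other genes of nuclear traffic and the nuclear envelope were followed as a list of 25, covering mRNA export (such as nxf-1 and nxt-1), the lamina (lmn-1, emr-1, lem-2, baf-1), nuclear anchorage (unc-83, unc-84, anc-1) and sumoylation (smo-1, ubc-9). SET-26 was at 23 of 25 in glp-1(e2141) worms, HCF-1 at 21 and HDA-1 at 20, and in wild type worms at 22, 22 and 15 in that order of factors. The shares of all genes were 38.7%, 37.2% and 40.5% in glp-1(e2141) worms and 36.7%, 31.3% and 29.9% in wild type. In the set-26 mutant on glp-1 RNAi HCF-1 was kept at 4 of 22, namely baf-1, cec-4, nxf-1 and nxt-1, in glp-1(e2141) worms at 12 of 22 and on L4440 at 14 of 21. Over all genes bound in the control, the shares kept were the 15.4%, 42.3% and 68.3% given above, in the same order of settings. The nxf-1 and nxt-1 genes encode the pair of proteins that carries mRNA through the pore. SET-26 was kept in the hcf-1 mutant at 21 of 21 on glp-1 RNAi and 22 of 22 on L4440, as it was at nearly all the transport genes. Of all genes bound in the control, 87.7% kept it on glp-1 RNAi and 94.1% on L4440.

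The transport genes were spread unevenly over the genome. Of the 39, 13 are on chromosome I (33.3%, against 14.4% of all protein-coding genes), 8 each on II and IV, 7 on III, 3 on V (7.69%, against 25.0%) and 0 on X, which holds 13.7% of all genes. The 9 genes bound in all 22 lists lie on 4 chromosomes, with npp-3 and npp-21 on II, ran-1 on III, npp-20 on IV and the rest on I.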

How the data were processed

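The members and gene lists were chosen with earlier results of these data known. The study's methods, like the processing notes of the submitters, name Trim Galore 0.6.5, Bowtie2 2.4.3 and the WBcel235 genome, and the lists used here were called on merged replicates. Peak calling by the authors used, per the file headers, MACS2 2.1.4 (q 0.01, fragment size 200 bp, duplicates kept, larger library scaled to the smaller). The deposited signal is the fragment pileup at the summit, the deposited fold is its ratio to the background near the site in the control library, and the deposited −log10 q values come from the authors' test of each summit. All were used as given. SET-26 and HDA-1 in glp-1(e2141) share HA background libraries. The genotype label of HDA-1 in the set-26 mutant spells the allele differently from the titles, which were followed. Depth per replicate was not analysed here, so tags of merged libraries are.

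Here, entries with the same start and end were collapsed to 1 unique peak, represented by its highest −log10 q summit. Genes and starts came from Ensembl release 115 (WBcel235), and 0 of 201446 peaks ended past a chromosome end of the RefSeq copy. Overlap of 1 bp counted. A gene bound in a control kept its peak where 1 or more mutant peaks overlapped the window. Ratios are mutant over control, or germline-less over whole worm, of the fold of the strongest peaks. Named genes were, for each factor, the 4 strongest in glp-1(e2141), up to 6 present in 1 background only, those keeping HCF-1 in 2 or more set-26 mutant lists, and up to 6 losing SET-26 or HDA-1 in each pair; others named were chosen after their values were seen. The overlap code was tested on simulated data. Python 3.11.15, pandas 2.3.3, numpy 2.4.6 and matplotlib 3.10.9 were used. Alternatives changed the window, the fold minimum, the assignment of a peak to a gene and the definition of a kept peak. The assignment alternative looked for a nearer start on the same strand alone. It therefore left out neighbours on the opposite strand and could not show which gene of a divergent pair a peak belongs to.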

Additional observations from a re-analysis of the deposited data

How the results depend on the processing

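No paired analysis was possible because the peak lists analysed here were those called on merged replicates, and for the same reason no replicate could be left out of them. Of 75 alternatives to the 17 counts of transport genes bound or keeping a peak, 68 gave a count within 1.5 times the one reported. With peaks of at least 3-fold alone, HCF-1 in glp-1(e2141) worms was at 25 transport genes (17.9% of all genes), HDA-1 at 12 with glp-1(e2141) (16.6%) and at 6 in the wild type (9.01%), and all 3 factors at 12 with glp-1(e2141) (9.21%) and at 6 in the wild type (4.47%). When a mutant peak had to cover 50% of a control peak, HCF-1 in the set-26 mutant was kept at 1 of 39 transport genes on glp-1 RNAi (1.91% of all genes bound in the control) and at 3 of 39 in glp-1(e2141) worms (13.5%). Mutant HCF-1 peaks in those lists were narrow, with medians of 372 bp and 331 bp over the transport genes, against 947 bp and 762 bp in the controls. With equal numbers of peaks in both lists of a pair, HCF-1 was kept at 10 of the 16 transport genes then bound in the control on glp-1 RNAi (44.0% of all genes then bound), 18 of 35 in glp-1(e2141) worms (54.6%) and 35 of 36 on L4440 (83.8%). A gene without a called peak may still carry the factor below the authors' threshold.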
